A study of Drosophila melanogaster with 4 samples.

Results

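The fast chemical transmitters of the fly head act through a small set of receptors. Of the 13926 genes in the count table, 34 that encode receptors for acetylcholine, GABA, glutamate or histamine were examined. Further receptors of these families, such as CG3822 and Grik, are in a separate list below. The 34, called the receptor genes here, were chosen by name, with earlier results of these data known. They comprise 10 nicotinic subunits, 3 muscarinic receptors, 3 ionotropic GABA receptor subunits, 3 metabotropic GABA receptors, 13 genes for glutamate receptors and 2 histamine-gated chloride channels. Of the 34, 3 had no count in any library, and 31 were among the 9609 genes with enough counts to be tested.

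Head RNA was compared between control siblings (+/+) and NelfA*/+ flies, with 2 libraries of each, all from males at D50, that is 50 days old. NelfA*/+ flies carry a P-element insertion (KG09483) in one copy of Nelf-A, which encodes a subunit of the complex that holds RNA polymerase II paused near promoters, and the line was backcrossed to w1118, so that all flies of both genotypes come from this background. Each library came from a pool of 20 heads, so that variation between single flies was not measured, and whole heads mix brain, eye, muscle and fat body. In such bulk RNA, fewer cells of a type and less RNA per cell cannot be told apart.

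Acetylcholine is the main excitatory transmitter of the insect brain, and it acts through nicotinic channels, which open within milliseconds, and through slower muscarinic receptors coupled to G proteins. GABA is the main inhibitory transmitter. Glutamate excites muscle at the neuromuscular junction and either excites or inhibits neurons in the brain, depending on the receptor, and histamine is released by photoreceptors onto chloride channels of their target neurons.

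Counts on genes came to between 42985746 and 45172099 per library. Nelf-A, examined as a check of the labels, had 3588 and 3505 raw counts in control siblings against 2398 and 2294 in NelfA*/+ libraries. Its normalized count in NelfA*/+ heads was 68.7% of that in control siblings (log2 fold change -0.54, standard error 0.07, adjusted p = 0.0411 in edgeR's quasi-likelihood test). This call was lost without control sibling 1 (adjusted p = 0.259, edgeR) or 2 (0.145), and without the filter on low counts (0.0584), while the fold change stayed between -0.59 and -0.50. Neuron markers were abundant (nSyb between 69890 and 93700 normalized counts), although Syx1A was listed at 0 in every library and elav had at most 8 counts, and both muscle and photoreceptor markers were also present. Of 9 gut markers, the digestive enzyme gene Jon65Aiii had 4 and 4 counts in control siblings against 3283 and 1546 in the NelfA*/+ libraries, and the list summed to 473, 418, 1064 and 443 CPM (counts scaled to the size of the library) in control siblings 1 and 2 and NelfA*/+ replicates 1 and 2. The sum was led by Amy-p, which was lower in both NelfA*/+ libraries. Of the 7 gut markers tested, 6 were higher in both NelfA*/+ libraries than in both control siblings (26.1% of all genes were). Among these was alphaTry, with 6 and 12 counts against 7540 and 511. Most of them passed the filter only through the NelfA*/+ libraries, which largely fixed their direction. All of them except betaTry (12 and 24) had more counts in replicate 1 than in replicate 2. The untested markers were high in replicate 1 alone (LManV 3991 and 0, Jon25Bii 20 and 0). Leaving out replicate 1 does not remove the difference in genes such as Jon65Aiii. The part of the gut markers in the receptor values was not tested. Fat body markers had log2 fold changes below 0 in 6 of 8 genes (median -0.36), whereas 52.3% of all genes were above 0. In edgeR 1 was called lower, the storage protein gene Lsp1beta (-1.41), beside 1.87% of all genes called in either direction. DESeq2 called 4 lower, beside 8.98% of all genes called in either direction. The fat body markers summed to 8185 and 7558 CPM, then 7601 and 7628 CPM, and their part was not tested either.

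The 3 receptor genes listed at 0 were nAChRbeta3, a nicotinic subunit, mAChR-C, a muscarinic receptor, and Nmdar2, a subunit of the NMDA-type glutamate receptor. Each lies wholly inside another gene on the opposite strand: nAChRbeta3 inside Ets21C, mAChR-C inside nonC and Nmdar2 inside inc (BDGP6, Ensembl annotation). All exon bases of nAChRbeta3 are also exon bases of Ets21C, whereas mAChR-C and Nmdar2 share none with the gene around them. Across the table, of 1838 protein-coding genes enclosed by another, 1831 were listed at 0, as were all 1257 of them that share no exon base with it, among these 876 inside a gene on the other strand only. Of the 12045 protein-coding genes that do not lie inside another, 620 were listed at 0. A count of 0 for these 3 receptors therefore cannot be read as absence of their RNA. GluRIIB, a neuromuscular junction subunit, had 3 and 11 raw counts in control siblings against 11 and 2 in NelfA*/+ libraries, which is too few for a comparison.

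None of the 31 receptor genes passed an adjusted p of 0.05 in edgeR's quasi-likelihood test, in which 1.87% of all genes did. CG3822, a glutamate receptor gene outside this set, did pass and is described below. At an unadjusted p below 0.05 there were 10 of 31 (32.3%, against 20.3% of all genes tested), and at an adjusted p below 0.1 there were 3 (9.68%, against 6.02%): Grd, Nmdar1 and ort. DESeq2, which called 8.98% of all genes and 4.16% as higher, called 5 receptor genes (16.1%), all of them higher in NelfA*/+ heads: Grd, Nmdar1, ort, GABA-B-R3 and mAChR-A. limma-voom called 0. Grd was also called by edgeR with robust dispersions (3.74% of all genes were) and with the trend on gene length taken out (3.60% were).

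The log2 fold change was above 0 in 24 of 31 receptor genes (77.4%, against 52.3% of all genes). Both NelfA*/+ libraries lay above both control siblings in 14 (45.2%, against 26.1%) and below both in 4 (12.9%, against 26.0%). The median log2 fold change was 0.14, beside 0.01 over all genes tested. This median rested on single libraries: it was 0.29 without control sibling 1, 0.02 without control sibling 2, 0.24 without NelfA*/+ replicate 1 and 0.08 without NelfA*/+ replicate 2.

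**Figure D1:**
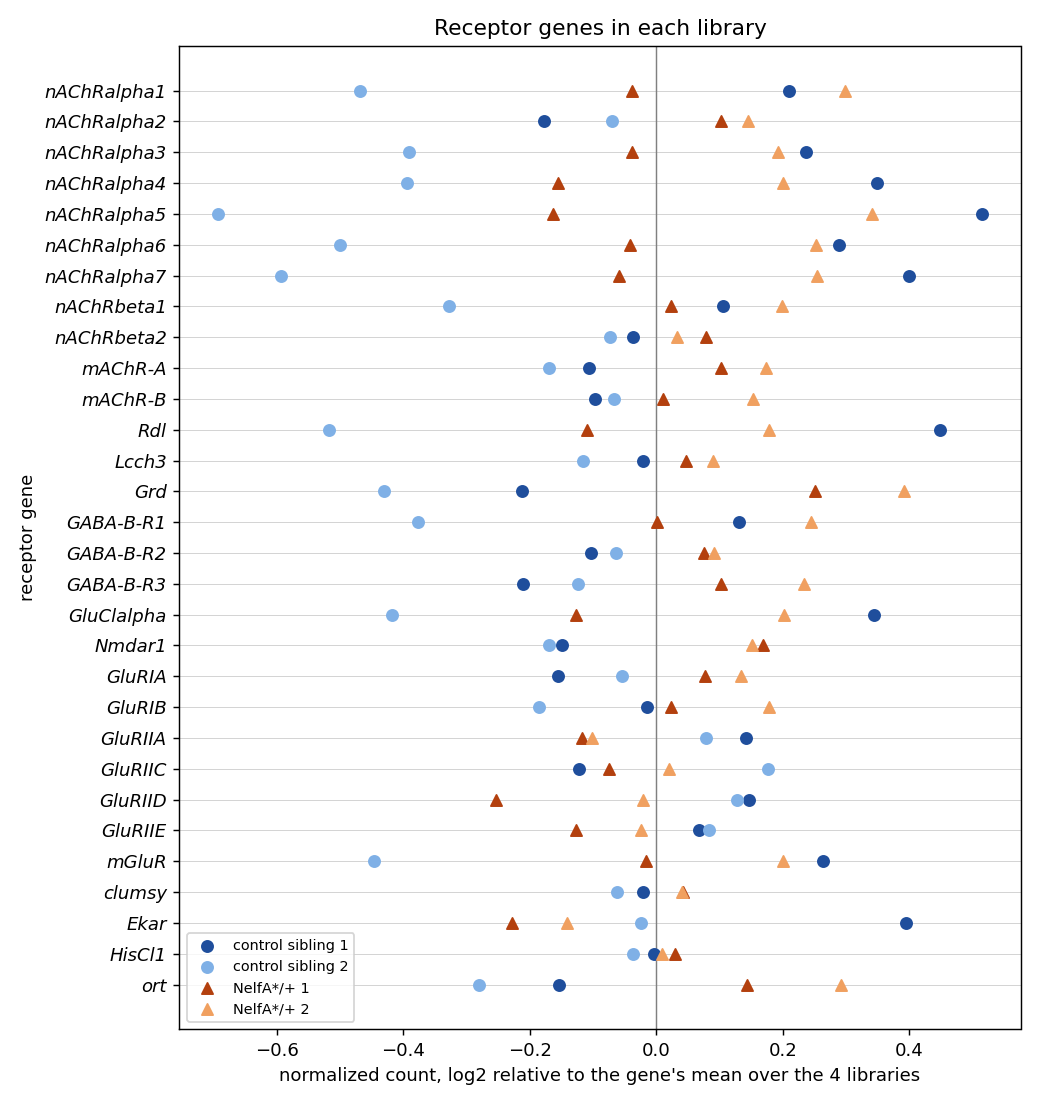
Normalized count of each receptor gene in each library, as the log2 difference from that gene's mean over the 4 libraries; GluRIIB and the 3 genes listed at 0 are left out. Circles are control siblings and triangles NelfA*/+ libraries. In genes such as nAChRalpha5 and Rdl the control siblings lie at the 2 extremes with the NelfA*/+ libraries between them, whereas in Grd, Nmdar1 and ort both triangles lie to the right of both circles.

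Among the nicotinic subunits, which form the cation channels of excitatory synapses in the brain, all 9 tested had a log2 fold change above 0, from 0.01 to 0.25 (52.3% of all genes were above 0), and the smallest adjusted p was 0.174. This direction rested on control sibling 2. The median of the class was 0.13, and it was -0.15 without that library, where 6 of the 9 signs turned, 0.47 without control sibling 1, 0.27 without NelfA*/+ replicate 1 and 0.01 without NelfA*/+ replicate 2. nAChRalpha2 had the smallest p, with normalized counts of 1628 and 1753 in control siblings against 1977 and 2036 in NelfA*/+ libraries (log2 fold change 0.25, standard error 0.08, edgeR). nAChRbeta2 had 2388 and 2329 against 2589 and 2506. In these 2 subunits the genotypes did not overlap, and the libraries of one genotype lay close together.

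The other 7 nicotinic subunits overlapped between the genotypes, because the control siblings differed widely. nAChRalpha5 had 13470 and 5829 normalized counts in control siblings 1 and 2, a 2.31-fold difference, and 8419 and 11940 in the NelfA*/+ libraries. nAChRalpha7 had 15870 and 7975 against 11560 and 14350. nAChRalpha6, a target of spinosyn insecticides, had 24080 and 13940 against 19140 and 23480. Control sibling 2 was the lowest library in these 3 subunits, and also in nAChRalpha1, nAChRalpha3 and nAChRalpha4.

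nAChRbeta1, the most abundant of the receptor genes per length, had 21880 and 16210 normalized counts in control siblings against 20670 and 23350 in NelfA*/+ libraries (log2 fold change 0.21, standard error 0.17, adjusted p = 0.555, edgeR). Control sibling 2 was again the lowest. Per kilobase of exon its level in control siblings was 145 ± 25.8 CPM (SD, n = 2), followed by Rdl with 74.2 ± 31.6, nAChRalpha6 with 55.0 ± 19.1, GluClalpha with 53.2 ± 17.8 and nAChRalpha7 with 46.4 ± 20.4. After nAChRbeta1, neighbours among these 5 genes did not differ by more than their spread. Per kilobase of gene the order changed, with nAChRbeta1 at 64.7 ± 11.5 CPM, GABA-B-R2 at 20.5 ± 1.08 and Rdl at 18.4 ± 7.83, so that only the place of nAChRbeta1 was the same on both scales.

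The muscarinic receptors, which act through G proteins, had narrow spreads. mAChR-A had 4555 and 4359 normalized counts in control siblings against 5265 and 5527 in NelfA*/+ libraries (log2 fold change 0.28, standard error 0.07, adjusted p = 0.113 in edgeR and 0.0369 in DESeq2). mAChR-B had 1677 and 1713 against 1808 and 1994 (log2 fold change 0.17). Both genes were higher in both NelfA*/+ libraries, and neither passed edgeR's test.

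Grd, which encodes a subunit related to GABA and glycine receptors, had the largest fold change of the receptor genes. It lies on chromosome arm 3L from 17823333 to 17839767. Its normalized counts were 441 and 379 in control siblings against 608 and 670 in NelfA*/+ libraries (log2 fold change 0.64, standard error 0.12, adjusted p = 0.0739 in edgeR and 0.00500 in DESeq2). The lowest NelfA*/+ library lay well above the highest control sibling. With 1 library left out in turn its fold change ranged from 0.53 to 0.75. Of its exon bases, 27.5% also belong to exons of CG32188, CG32189 or CG5577, so that part of the gene could not be counted for Grd alone.

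The other ionotropic GABA subunits differed less. Rdl, the main GABA-gated chloride channel subunit and the target of dieldrin, had 39240 and 20100 normalized counts in control siblings against 26670 and 32550 in NelfA*/+ libraries (log2 fold change -0.003, standard error 0.33). Its control siblings were the highest and the lowest of the 4 libraries, so that a difference between the genotypes was not detectable. Lcch3 had 994 and 930 against 1042 and 1073 (log2 fold change 0.14, adjusted p = 0.372, edgeR), with 31.3% of its exon bases shared with other genes.

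Of the metabotropic GABA receptors, GABA-B-R1 and GABA-B-R2 act as a heterodimer, and the role of GABA-B-R3 is less clear. GABA-B-R3 had 2606 and 2769 normalized counts in control siblings against 3239 and 3545 in NelfA*/+ libraries (log2 fold change 0.34, standard error 0.08, adjusted p = 0.112 in edgeR and 0.0277 in DESeq2). GABA-B-R2 had 4914 and 5054 against 5566 and 5628 (log2 fold change 0.17, standard error 0.06). The genotypes did not overlap in either gene. GABA-B-R1 had 4401 and 3099 against 4026 and 4764, with control sibling 2 the lowest and the genotypes overlapping.

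Among the glutamate receptors of the brain, Nmdar1, the subunit that NMDA receptors require, had the narrowest spread. It lies on chromosome arm 3R from 5508842 to 5523328 and overlaps the span of Itpr. They share 0 exon bases, but enclosed genes without shared exon bases were also listed at 0. How much of Nmdar1 was counted is therefore not known. Its normalized counts were 2214 and 2183 in control siblings against 2758 and 2725 in NelfA*/+ libraries (log2 fold change 0.32, standard error 0.06, adjusted p = 0.0887 in edgeR and 0.00932 in DESeq2). With 1 library left out its fold change stayed between 0.31 and 0.33. Its partner Nmdar2 could not be examined.

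GluRIA and GluRIB, AMPA-type subunits, had log2 fold changes of 0.21 and 0.20 (adjusted p = 0.223 and 0.327, edgeR). GluRIA had 1334 and 1432 normalized counts in control siblings against 1567 and 1631 in NelfA*/+ libraries, and GluRIB had 3080 and 2735 against 3160 and 3519. The kainate-type subunit clumsy had 716 and 696 against 748 and 748. In all 3 genes both NelfA*/+ libraries were the higher ones.

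Ekar, a kainate-type subunit known from photoreceptors, lay on the other side. It had 5154 and 3854 normalized counts in control siblings against 3349 and 3554 in NelfA*/+ libraries (log2 fold change -0.38, standard error 0.15, adjusted p = 0.244, edgeR). Both NelfA*/+ libraries were lower, but control sibling 2 was nearer to them than to control sibling 1. GluClalpha, the glutamate-gated chloride channel and target of ivermectin, and mGluR, the metabotropic glutamate receptor, overlapped between the genotypes. GluClalpha had 19710 and 11620 against 14220 and 17850, and mGluR had 4505 and 2756 against 3712 and 4313.

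The subunits of the neuromuscular junction receptor, in which GluRIIA and GluRIIB are alternatives and GluRIIC, GluRIID and GluRIIE are shared, had log2 fold changes below 0, but those of GluRIIB, which has too few counts, and GluRIIC turned without control sibling 2 (GluRIIC then 0.10), so that 3 genes bore the direction. GluRIIA had 954 and 912 normalized counts in control siblings against 796 and 805 in NelfA*/+ libraries (log2 fold change -0.22, standard error 0.07, adjusted p = 0.178, edgeR). GluRIID had 255 and 252 against 193 and 227, and GluRIIE had 302 and 305 against 264 and 283. In these 3 genes both NelfA*/+ libraries were the lower ones. GluRIIC overlapped (338 and 416 against 349 and 373), and none of the class passed the test. Muscle markers did not move with them: all 8 had a log2 fold change above 0 (median 0.15, beside 52.3% of all genes above 0), and their sum was 2872 and 2854 CPM in control siblings and 3100 and 3252 CPM in the NelfA*/+ libraries.

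Of the histamine channels, ort, the receptor of the lamina neurons that photoreceptors contact, had 1147 and 1051 normalized counts in control siblings against 1410 and 1562 in NelfA*/+ libraries (log2 fold change 0.44, standard error 0.09, adjusted p = 0.0902 in edgeR and 0.0160 in DESeq2). It lies on chromosome arm 3R from 19659748 to 19663672. The genotypes were well apart, and the fold change ranged from 0.36 to 0.51 with 1 library left out. HisCl1, which acts in photoreceptors and glia, had 835 and 816 against 855 and 843 (log2 fold change 0.04). Photoreceptor markers summed to 49900 and 54620 CPM in control siblings and 59030 and 53250 CPM in the NelfA*/+ libraries, and so overlapped. This sum was led by ninaE.

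**Figure D2:**
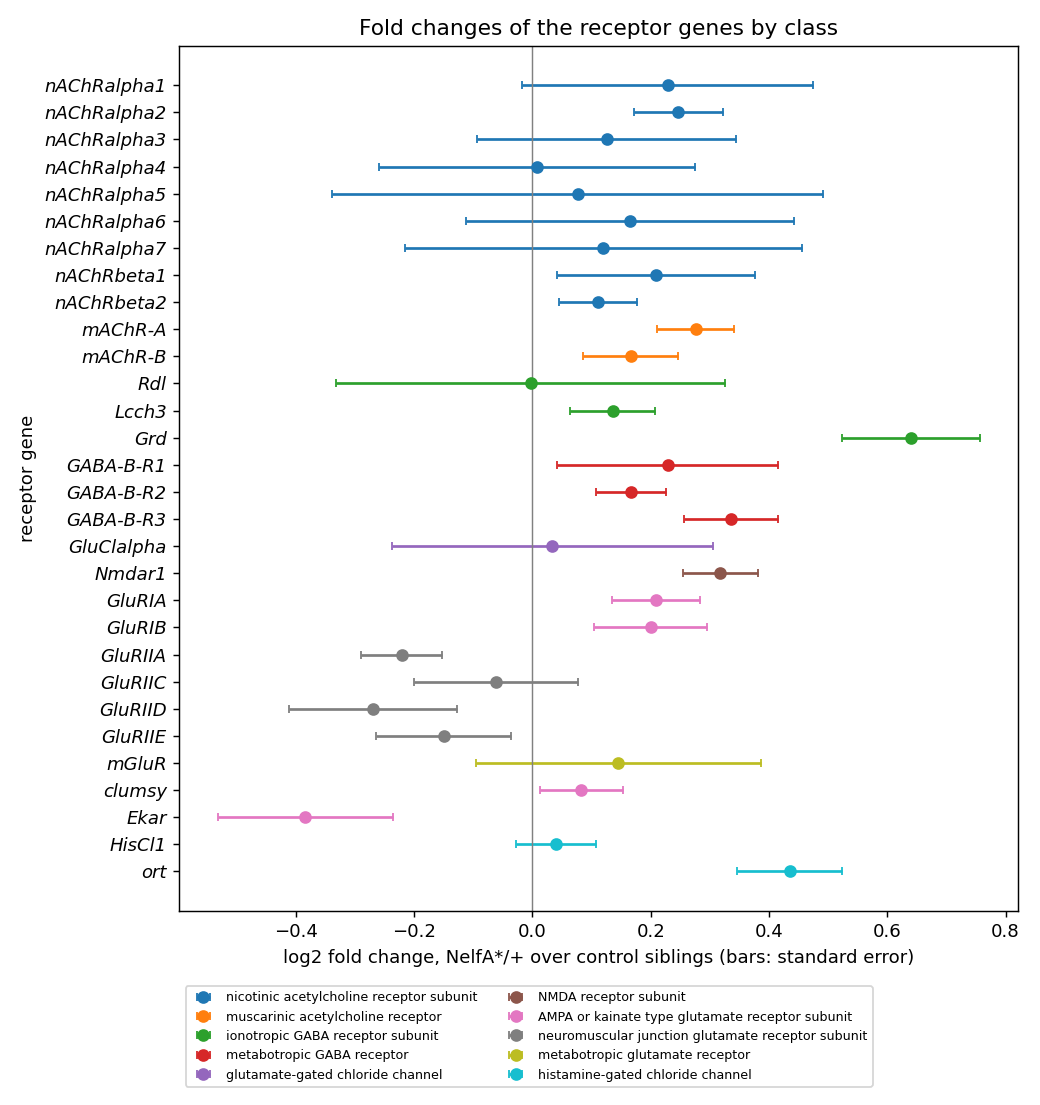
Log2 fold change of each tested receptor gene except GluRIIB, NelfA*/+ over control siblings, with bars of 1 standard error from edgeR and colours for the receptor classes. The neuromuscular junction subunits and Ekar lie to the left of 0, Grd at 0.64 and ort at 0.44 lie farthest to the right, and the bars are widest in nAChRalpha5 (0.42) and nAChRalpha7 (0.34).

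The receptor genes fell into a group with a wide and a group with a narrow difference between the control siblings, a division made after the values were seen. In 12 of the 30 genes with a mean count above 100 (40.0%), control sibling 1 was above control sibling 2 by at least 0.3 on the log2 scale, against 8.60% of all genes at that count. NelfA*/+ replicate 2 was also above replicate 1 in all of these 12, as it was in 581 of the 719 genes of the table with that difference between control siblings, so that 40.0% of the receptor genes and 6.95% of all genes showed both. None of the 30 had control sibling 2 above 1 by that much, beside 351 of 8365 genes of the table, but GluRIIC fell just short at -0.299. GluRIIB, left out for its few counts, stood at -1.81. The 12 were nAChRalpha1, nAChRalpha3 to nAChRalpha7, nAChRbeta1, Rdl, GABA-B-R1, GluClalpha, mGluR and Ekar. Their log2 ratios between the control siblings ran from 0.42 to 1.21, and the next gene stood at 0.22.

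Because the division used the spread between control siblings, it also fixed that the standard errors would be larger in the 12 genes, and these are given as a description. They ran from 0.15 to 0.42 (median 0.26) in the 12 and from 0.06 to 0.14 (median 0.08) in the other 18. Likewise, the genotypes did not overlap in 1 of the 12, Ekar, and in 17 of the 18, beside 26.1% of all genes higher and 26.0% lower. The median log2 fold changes of the groups were 0.12 and 0.17.

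The 12 genes were also long, with a median length from start to end of 40410 bases against 5614 in the other 18. Across the 30 receptor genes, which share their libraries, the control ratio had a Spearman rho of 0.66 with gene length, and the NelfA*/+ ratio (replicate 1 over 2) a rho of -0.71. Over all genes at that count the values were 0.42 and -0.43. Among genes over 20000 bases, the median control ratio was 0.75 in 10 receptor genes and 0.17 in all 943 genes. The trend on gene length was also taken out of each library, a step added after the values were seen. The median log2 fold change of the receptor genes was then 0.09. Without this step it was 0.14, beside 0.01 for all genes tested.

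**Figure D3:**
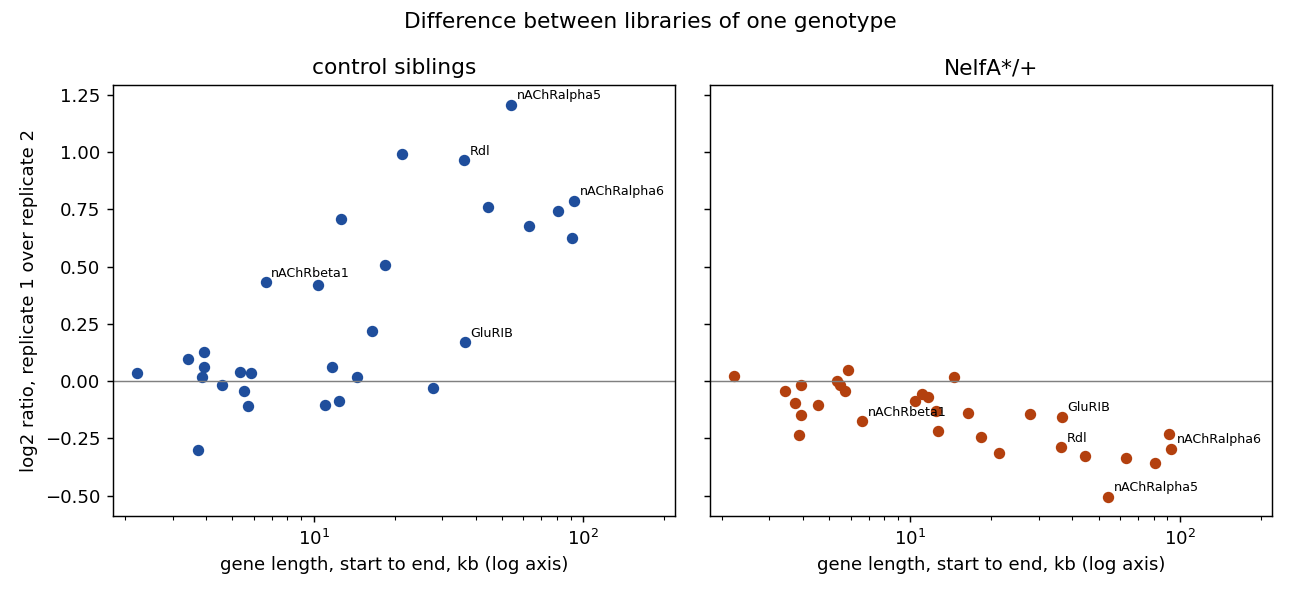
Log2 ratio of replicate 1 over replicate 2 within each genotype against gene length (log axis), with each point a receptor gene of mean count above 100. In control siblings the ratio reaches 1.21 in nAChRalpha5, and in NelfA*/+ libraries the same gene stands lowest.

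Neuron markers moved with the receptors. Their sum was 6249 and 4421 CPM in control siblings 1 and 2 and 5498 and 6303 CPM in the NelfA*/+ libraries, and the receptor genes summed to 4362 and 2940, then 3564 and 4220 CPM. Control sibling 2 was lowest in both, as it was in the fat body and gut lists. Within the neuron list, Syt1, brp, para, cac and fne showed the wide difference between control siblings, whereas nSyb and Snap25 did not reach it. The sum of the glia markers differed little (2963 and 2854, then 2680 and 2757 CPM), but it was led by 1 gene, Gs2. Of the 8 glia markers 2 were listed at 0. Of the 6 tested, 4 had a log2 fold change above 0 (median 0.03), beside 52.3% of all genes above 0. The part of the neuronal share of the RNA in the receptor values was not tested.

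**Figure D4:**
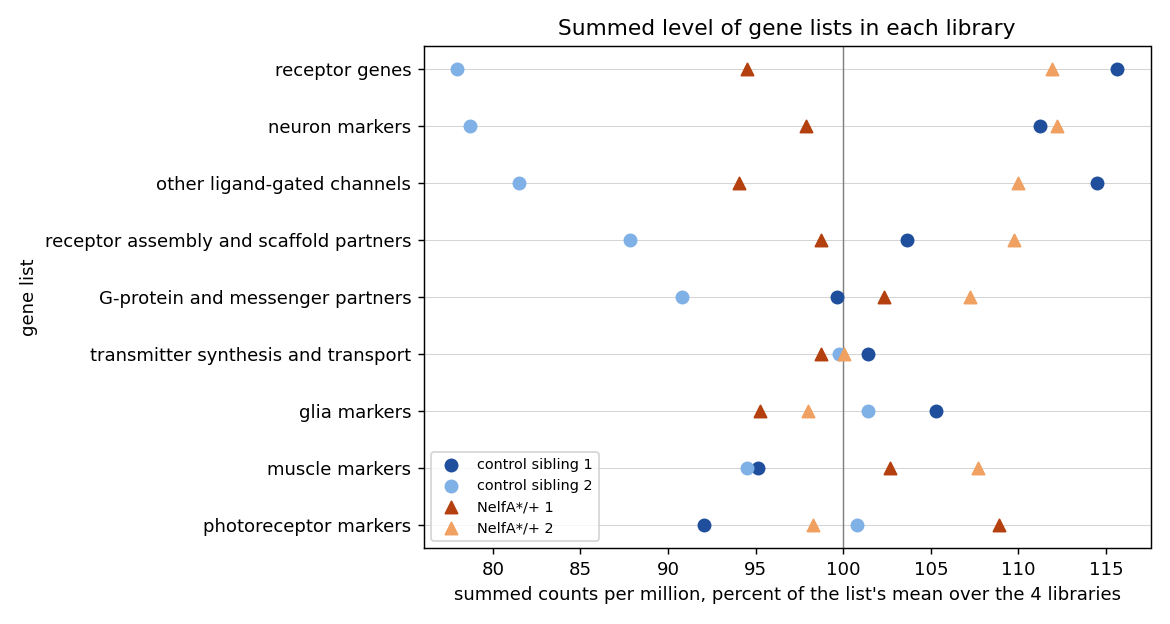
Summed CPM of the receptor genes and of lists of related genes and cell type markers in each library, in percent of each list's mean over the 4 libraries. Control sibling 2 (light circle) lies farthest to the left in the receptor, neuron marker, other channel, scaffold and G-protein lists, and by a small margin in the muscle list, but not in the glia or photoreceptor lists.

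Genes that supply and clear the same transmitters were examined beside the receptors. Of 19 in the list, 18 were found in the table, 16 passed the filter and 0 passed edgeR's test, with 8 at an unadjusted p below 0.05 (20.3% of all genes were). Their median log2 fold change was 0.14, and DESeq2, which called 8.98% of all genes, called 4 higher and 2 lower. VAChT, the vesicular acetylcholine transporter, was listed at 0. VGlut, which loads glutamate into vesicles, had 10310 and 9786 normalized counts in control siblings against 12990 and 14010 in NelfA*/+ libraries (log2 fold change 0.43, adjusted p = 0.0803, edgeR). Gad1, which makes GABA, had 13710 and 13320 against 17570 and 17760 (log2 fold change 0.39, adjusted p = 0.0856, edgeR). In both genes the genotypes lay apart by more than the libraries within them.

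The histamine genes differed in direction from ort. The gene e (ebony), whose product conjugates histamine with beta-alanine in glia, had 3160 and 2941 normalized counts in control siblings against 1908 and 2238 in NelfA*/+ libraries (log2 fold change -0.56, standard error 0.10, adjusted p = 0.0739 in edgeR and 0.00110 in DESeq2). It starts 327 bases from the end of Nelf-A. Named after their values were seen, t (tan), which reverses that step, had a log2 fold change of -0.34, CarT, a carcinine transporter, -0.31 and Hdc, which makes histamine, -0.08. None of these passed edgeR's test.

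**Figure D5:**
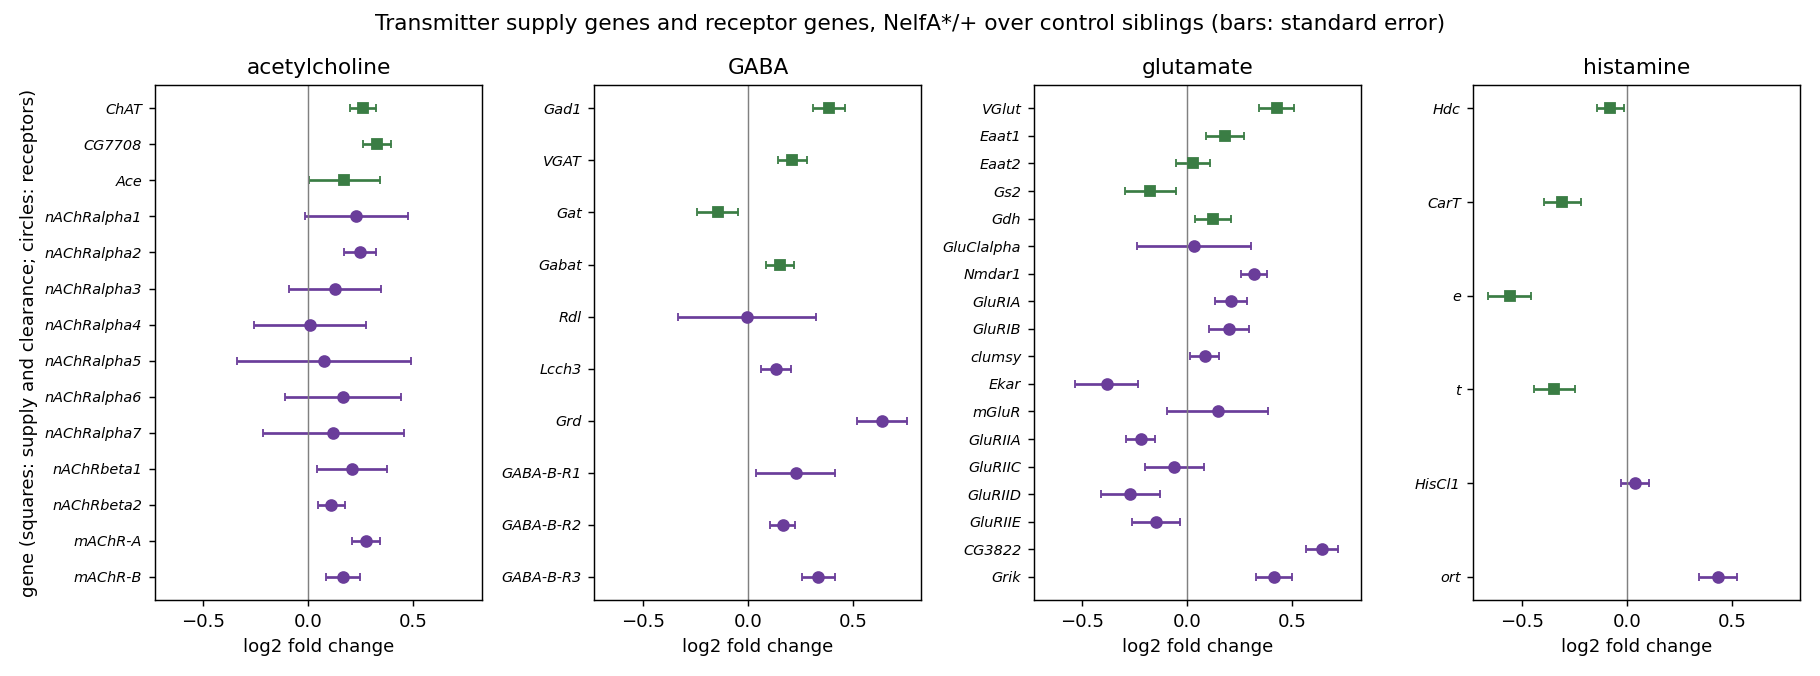
Log2 fold change with 1 standard error for supply and clearance genes (squares) and receptor genes (circles) of each transmitter, NelfA*/+ over control siblings. For histamine the 4 supply genes lie to the left of 0 and ort at 0.44 to the right. For GABA, Gad1 at 0.39 and Grd at 0.64 lie farthest to the right, whereas Gat at -0.14 lies to the left and Rdl stands at -0.003.

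Of the assembly and scaffold partners, 15 of 17 were found and tested, 14 had a log2 fold change above 0 (median 0.16), beside 52.3% of all genes. In this list 0 passed edgeR's test, 6 had an unadjusted p below 0.05 (20.3% of all genes) and DESeq2 called 3 higher (4.16% of all genes). The 3 with the smallest p were Nlg2, a neuroligin (log2 fold change 0.30, adjusted p = 0.112), hig, a protein of the cleft at cholinergic synapses (0.31, adjusted p = 0.147), and Neto, an auxiliary subunit of the neuromuscular junction receptor (0.42, adjusted p = 0.137, all edgeR). Neto was thus higher in both NelfA*/+ libraries while the receptor subunits it accompanies were not. Of 15 genes for G-protein and second messenger partners 0 passed edgeR's test (1.87% of all genes did). In this list 2 had an unadjusted p below 0.05 (20.3% of all genes) and 0 were called by DESeq2 (8.98% of all genes). The median was 0.10, and Galphai (-0.23), Irk3 (0.35) and rut (0.24) had the smallest p.

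Among 10 other channels and receptors of these families, 9 were tested and 1 passed edgeR's test, beside 1.87% of all genes. Of the 9, 4 had an unadjusted p below 0.05 (20.3% of all genes) and DESeq2 called 2 higher (4.16% of all genes). CG3822, also named KaiR1D, a kainate-type glutamate receptor, rose from 1712 and 1620 normalized counts in control siblings to 2519 and 2680 in the NelfA*/+ libraries (log2 fold change 0.64, standard error 0.08, adjusted p = 0.0360, edgeR). The call was lost without control sibling 1 (adjusted p = 0.226), without control sibling 2 (0.171) and without the filter on low counts (0.0502). Grik, another kainate-type subunit, had a log2 fold change of 0.41 (adjusted p = 0.0915, edgeR). pHCl-2, a pH-sensitive chloride channel named after its values were seen, had 2, 1 and 5 counts in the 2 control siblings and NelfA*/+ replicate 2 and 204 in NelfA*/+ replicate 1, the library with the highest sum of gut markers. pHCl-2 was not among the 9 tested in edgeR. DESeq2 also called it higher (log2 fold change 6.1, adjusted p = 0.0425), which rested on that 1 library.

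CG3822 and Grik lie 357 and 315 kb from Nelf-A on chromosome arm 3R. Other receptor genes within 3.28 Mb of Nelf-A were GABA-B-R2 at 541 kb, GluRIID at 571 kb, GluRIIE at 575 kb, GluClalpha at 1.45 Mb and ort at 1.56 Mb. Farther out in this stretch were nAChRalpha1 at 3.16 Mb, nAChRalpha2 at 3.26 Mb and nAChRbeta2 at 3.28 Mb. The effect of the insertion and that of any sequence that stayed linked to it through the backcross cannot be told apart for these genes. The same holds for e, 327 bases from Nelf-A. Grd, on the other arm of the same chromosome (3L), and Nmdar1, 15.7 Mb away on 3R, are not close to Nelf-A.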

How the data were processed

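Polyadenylated head RNA of 4 pools was sequenced. Reads were trimmed by the authors (Trim Galore), mapped to BDGP6 (STAR, version 2.5 in the submitters' processing notes) and counted (HTSeq-count). The deposited values are raw counts per gene, without normalization, and the strand and feature settings are not given in the sources used here. The 5 summary lines were left out; reads on more than 1 gene made up between 7.47% and 8.00% of a library. No column of per-sample values was left unused (0). The authors' table of their DESeq2 1.22.1 comparison (mean, log2 fold change, standard error, Wald statistic, p-values) was not used.

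Counts were compared with edgeR 4.0.16 in R 4.3.3 (filterByExpr, TMM, quasi-likelihood test, Benjamini-Hochberg adjustment over 9609 genes, threshold 0.05). For a normalized count, the count was divided by its library's TMM-scaled size over the mean of those sizes. The standard error is the fold change over the square root of F. Alternatives were DESeq2 1.42.0, limma-voom (limma 3.58.1), other size factors and filters, robust dispersions, a replicate block, a threshold of 0.1 and each library left out. The steps were tested on simulated data. Of the gene names, 12783 matched the Ensembl annotation by symbol and 1111 by an older symbol.

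Replicate numbers come from the labels, which tie no same-numbered libraries together; their deviations correlated at r = -0.13 over 8365 genes. With 2 libraries per genotype, p-values rest on the spread between these pools. The members and lists were chosen with earlier results of these data known. All receptor genes were named, and from each list the genes past the threshold or else the 3 with the smallest p. SciPy 1.17.1 and pandas 2.3.3 were used for the tables.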

Additional observations from a re-analysis of the deposited data

How the results depend on the processing

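The number of genes called was 180 of 9609. It was 911 with DESeq2's Wald test, 118 with limma-voom, 82 without a filter on low counts, 359 with robust dispersions, 578 at an adjusted p below 0.1, and 345 with the gene length trend removed, an alternative chosen after seeing the data. Leaving out 1 library gave between 2 (without either control sibling) and 554. The lone library of a genotype is then assumed to vary like the other genotype's. DESeq2's size factors, library size alone and a minimum of 10 counts in every library stayed within 1.5 times the 180.

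Of the receptor genes 0 were called, 5 with DESeq2, 1 with robust dispersions, 1 with the gene length trend removed, 3 at an adjusted p below 0.1, and between 0 and 1 with 1 library left out (1 without NelfA*/+ replicate 1). The median log2 fold change of the receptor genes was 0.14, and between 0.023 and 0.29 with 1 library left out. The sign of the fold change was the same in all 14 alternative fits for 19 receptor genes and turned in at least 1 for 12, namely nAChRalpha1, nAChRalpha3 to nAChRalpha7, Rdl, GABA-B-R1, GluClalpha, mGluR, GluRIIB and GluRIIC. The cause of these changes was not tested.

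With the replicate number as a block, 297 genes and 0 receptor genes were called, and Nelf-A had an adjusted p of 0.0537 (edgeR). With the pairing of the replicates crossed, an alternative chosen after seeing the data, 797 genes and 4 receptor genes were called.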
